A study of Rattus norvegicus with 30 samples.

Results

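Ischaemic preconditioning is the protection of heart muscle by brief periods of ischaemia that precede a longer one. The comparison described here set left ventricles that had received the trigger of ischaemic preconditioning alone (IPC_TRI, 5 arrays) against control left ventricles (CTL, 5 arrays). The members were the 10 arrays with these labels, of 30 in the series, and they were described across all 8740 probe sets that are not array controls. The labels name the left ventricle of the rat heart as the tissue of every array, total RNA as the material, Affymetrix handling, and 5 biological replicates per protocol. The other groups of 5 were the trigger of anaesthetic preconditioning (APC_TRI), ischaemia (ISCH), and the full protocols of ischaemic (IPC) and anaesthetic (APC) preconditioning. The sources used here do not give the strain, sex or age of the rats, the number and length of the ischaemic periods, the time of sampling, the anaesthetic or the handling of the hearts. The arrays of a group carry the letters a to e and are called arrays 1 to 5 in that order.

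In textbook accounts, brief ischaemia releases adenosine, bradykinin and opioids, whose receptors act through inhibitory G proteins. The signal passes through phosphoinositide 3-kinase and Akt, protein kinase C epsilon and nitric oxide to the mitochondria, where ATP-sensitive potassium channels and the permeability transition pore are regarded as its end points. A late window of protection, which depends on newly made proteins such as inducible nitric oxide synthase and heat shock proteins, follows after many hours. The working ventricle draws most of its ATP from the oxidation of fatty acids in mitochondria. Interferon-induced genes form a set with shared control: type I and type II interferons activate STAT and IRF factors, which switch on antiviral enzymes, guanylate-binding proteins, the chemokine Cxcl10 and the antigen-processing machinery.

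Levels are given as the signal of the deposited table, an array brightness on a linear scale without a unit. Changes are log2 differences, IPC_TRI minus CTL, of signal + 16 after quantile normalization over the 30 arrays, given with the standard error (SE) of the fit. A log2 difference of 1 is 2-fold on this scale, which understates the change of dim genes. The test was limma with all 6 groups in the fit, and a gene rose or fell where its Benjamini-Hochberg adjusted p, over all probe sets tested, was under 0.05. Where a gene had several probe sets, the brightest on average stood for it, and the others are given where one had the opposite sign, lay over 0.5 away on the log2 scale, or was called where the brightest was not. The test was also run with 1 of the compared arrays left out at a time, and an array without which a call was lost, or its change moved by over 1.5 times, is named in brackets after the gene. The number of arrays limits the precision. The SE and p-values rest on 1 spread per probe set between arrays within groups, pooled over the 6 groups. Such a pooled spread understates that of a group wider than the rest. The median within-group standard deviation was 0.523 (log2) in IPC_TRI, against 0.255 to 0.349 in the other groups. A fit of the 2 groups alone takes the spread from those 2 groups.

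The IPC_TRI arrays were the least alike of the series. Their mean pairwise correlation was 0.898, against 0.963 in CTL, and the median within-group standard deviation of a probe set was 0.523 (log2) in IPC_TRI against 0.255 in CTL. Array weights, which limma lowers where an array lies far from its group, ran from 0.164 (array 5) to 0.993 in IPC_TRI and from 0.790 to 2.13 in CTL. The brightest 1% of probe sets held 35.3 to 41.4% of the signal in IPC_TRI and 27.5 to 35.1% in CTL. The 3′ minus 5′ log2 difference of the beta-actin control probe sets, a sign of RNA and labelling quality, lay between -0.98 and 0.05 in IPC_TRI and between -0.31 and 0.31 in CTL, and that of Gapdh lay between 0.05 and 0.30 in IPC_TRI and between -0.24 and 0.01 in CTL. Of the genes named below, 119 were checked for 1 array far from the other 4 after normalization. Such an IPC_TRI array was found in 13, array 5 in 10 of them, and such a CTL array in 5. With array weights in the fit 394 probe sets were called, and with the beta-actin difference as a covariate 431, against 869 without. Of 17 markers of ventricular cardiomyocytes, 15 were on the array, all 15 passed the filter on low values and none was at 0 on any of the 10 arrays.

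**Figure D1:**
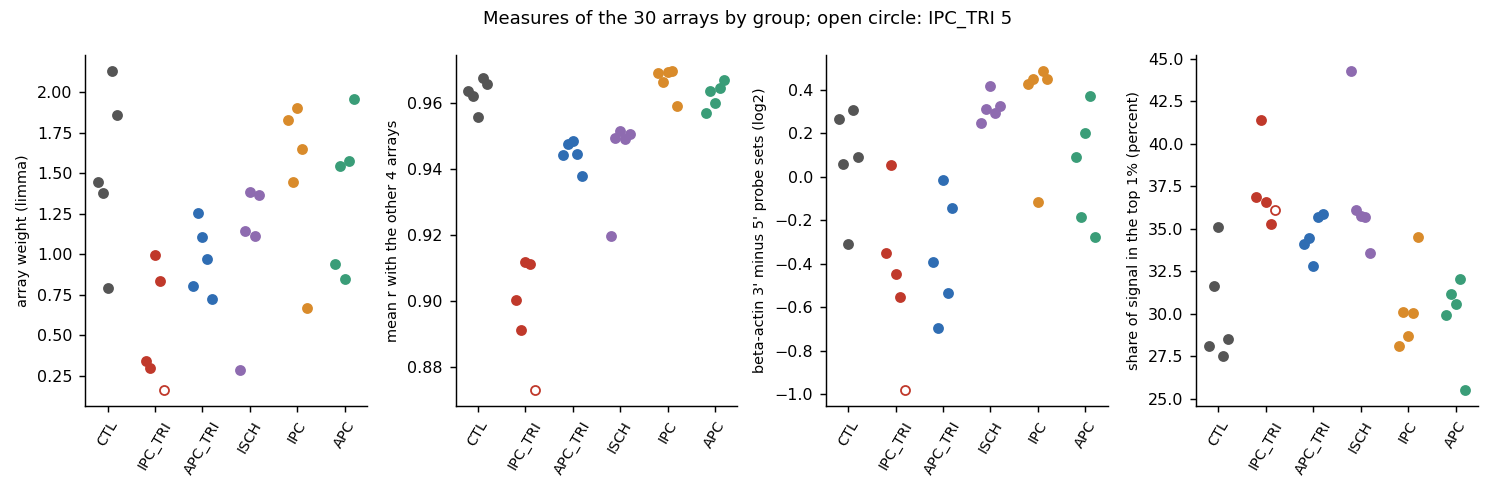
Each point is 1 of the 30 arrays, by group on the horizontal axis. The panels show the limma array weight, the mean correlation with the other 4 arrays of the group, the beta-actin 3′ minus 5′ log2 difference and the percent of signal held by the brightest 1% of probe sets; IPC_TRI array 5 has the lowest weight, 0.164, and IPC_TRI has the lowest correlations within a group, 0.873 to 0.912.

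In the hearts that received the trigger, 11 of 20 measured interferon-induced genes and some enzymes of mitochondrial fuel oxidation were lower than in control hearts, while Gnai2, an inhibitory G protein subunit, Cdc34, a ubiquitin-conjugating enzyme, and Ucp2, an uncoupling protein of mitochondria, were higher. These rises are those of the brightest probe sets. Dimmer ones were not called for Gnai2 (0.33 and 0.14) and Ucp2 (0.11), and for Cdc34 1 was called (1.01) and 1 was not (0.19). Of 5244 probe sets tested, 869 were called (16.6%), 339 of them higher in IPC_TRI (6.46%) and 530 lower (10.1%). Of 3155 genes tested, 495 changed (15.7%): 219 rose (6.94%) and 276 fell (8.75%). The counts of every gene list below are to be read against these shares. The deposited signals of the groups did not overlap for 135 genes that were higher in IPC_TRI (4.28%) and 149 that were lower (4.72%). A fit of the 2 groups alone called 238 probe sets (4.54%) and 135 genes (4.28%), 69 higher (2.19%) and 66 lower (2.09%), and 132 genes were called in both fits. The balance of directions depended on the scaling: with each array centred on its median instead, 100 genes were called higher and 413 lower, and the median change of all genes moved from -0.02 to -0.15. Without IPC_TRI array 5, 148 genes were called higher and 193 lower.

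**Figure D2:**
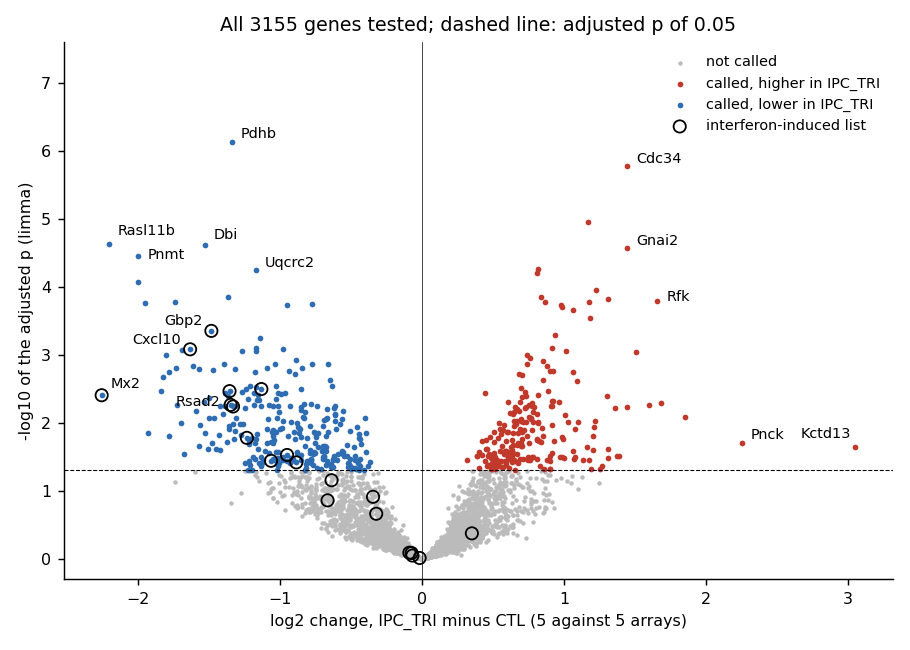
Each point is 1 of the 3155 genes tested, with the log2 difference IPC_TRI minus CTL on the horizontal axis and -log10 of the adjusted limma p on the vertical axis, where the dashed line is 0.05. Rings mark the 20 measured interferon-induced genes, of which 19 lie left of 0, and labels mark genes named in the text.

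**Figure D3:**
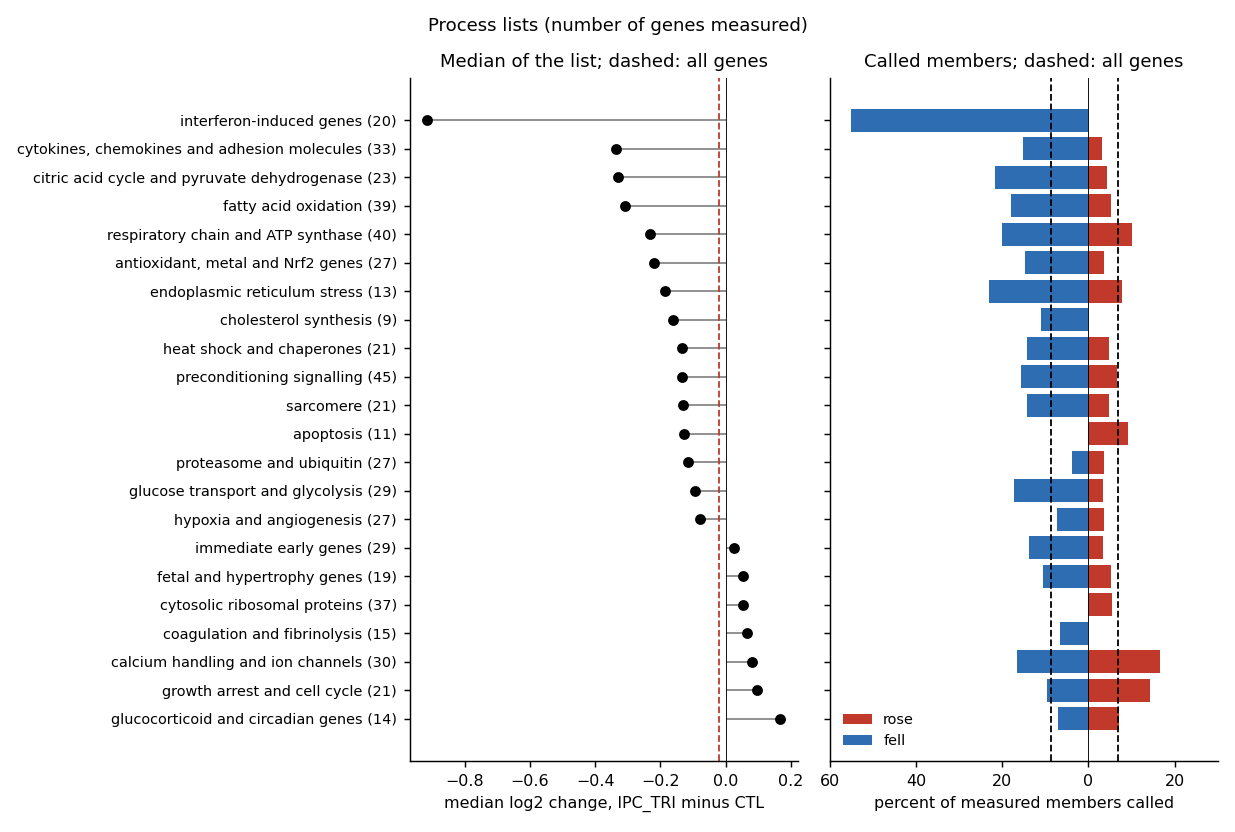
Each row is a gene list: one panel gives the median log2 difference IPC_TRI minus CTL of its measured genes, the other the percent of them called higher and lower. Dashed lines give the same over all 3155 genes tested (-0.02 for the median, 6.94% and 8.75% for the calls), and the interferon-induced genes have the lowest median, -0.92.

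Interferon-induced genes had the lowest median of the process lists. Of 41 listed genes, 20 were on the array, and all 20 passed the filter on low values: 11 fell, none rose and 9 did not pass the test. The median change was -0.92, against -0.02 over all genes tested, and 19 of the 20 values were below 0. The 11 that fell, from the largest change, were Mx2, Cxcl10, Gbp2, Rsad2, Eif2ak2, Psmb9, Mx1, Irgm2, Irf7, Stat2 and Tap1. They cover antiviral effectors (the Mx GTPases, Rsad2 or viperin, and the RNA-activated kinase Eif2ak2), GTPases against intracellular microbes (Gbp2, Irgm2), factors that carry the interferon signal (Irf7, Stat2) and antigen processing (Psmb9, Tap1). In the fit of the 2 groups alone 6 of them fell. With 1 array left out, 7 of the 11 kept the call throughout, and it was lost for Mx1 (IPC_TRI 2, adjusted p = 0.053), Irf7 (CTL 1, 2, 3 or 4 or IPC_TRI 1, 2 or 3, adjusted p = 0.053 to 0.10), Stat2 (CTL 2 or 3 or IPC_TRI 1, 2 or 3, adjusted p = 0.055 to 0.077) and Tap1 (CTL 1, 2 or 3 or IPC_TRI 1, 2 or 3, adjusted p = 0.055 to 0.10). Another probe set of Tap1 gave -1.94. Without IPC_TRI array 5, 12 members fell and the median was -1.06.

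The promoters of 3 of the 4 largest falls are shown because these genes moved together. The sequences are RefSeq's (build GRCr8) and run from 250 bases before to 50 after the annotated start, 5′ to 3′ along the gene's strand, with capitals marking GAAA, any 2 bases and GAAA again, on either strand, the core of the interferon-stimulated response element. Cxcl10 lies at chr14:15988816-15989115 (+ strand), Gbp2 at chr2:234005477-234005776 (+ strand) and Rsad2 at chr6:48788071-48788370 (- strand).
Cxcl10: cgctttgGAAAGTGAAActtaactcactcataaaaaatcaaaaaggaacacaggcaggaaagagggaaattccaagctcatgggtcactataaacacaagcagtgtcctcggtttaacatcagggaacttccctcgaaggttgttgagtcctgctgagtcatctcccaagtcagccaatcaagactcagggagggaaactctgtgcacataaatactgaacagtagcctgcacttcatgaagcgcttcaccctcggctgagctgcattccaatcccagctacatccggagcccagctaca
Gbp2: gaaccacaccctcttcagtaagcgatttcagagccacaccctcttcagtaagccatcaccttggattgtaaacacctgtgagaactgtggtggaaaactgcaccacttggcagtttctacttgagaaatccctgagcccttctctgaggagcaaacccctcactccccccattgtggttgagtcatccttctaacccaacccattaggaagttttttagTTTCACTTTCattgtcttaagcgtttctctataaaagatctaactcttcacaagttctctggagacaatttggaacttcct
Rsad2: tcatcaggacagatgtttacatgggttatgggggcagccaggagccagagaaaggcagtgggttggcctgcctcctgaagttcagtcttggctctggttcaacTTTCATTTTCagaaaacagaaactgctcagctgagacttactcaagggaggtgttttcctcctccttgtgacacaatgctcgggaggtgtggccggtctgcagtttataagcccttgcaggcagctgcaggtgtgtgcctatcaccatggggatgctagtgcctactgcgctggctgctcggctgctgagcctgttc
These letters were found in 1034 of 27457 promoters (3.77%) and in 83 of the 2595 tested genes with a promoter entry (3.2%). Of the 19 interferon-list members with an entry, 12 held them: 7 of 10 that fell and 5 of 9 that did not pass the test. A match is a description of the sequence, not a bound site. Mx2 was not among the entries.

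Mx2 codes for an interferon-induced dynamin-like GTPase. Its signals were 3097, 1132, 2835, 1903 and 1844 in CTL and 313, 145, 372, 581 and 1172 in IPC_TRI. The groups overlapped because IPC_TRI array 5 exceeded CTL array 2, while IPC_TRI arrays 1 to 4 were all below the lowest CTL array. The change was -2.25 ± 0.51 (SE), with an adjusted p of 0.0039 (limma).

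Cxcl10, the chemokine that draws activated T cells, had signals of 12083, 15134, 14288, 10419 and 10318 in CTL and 3503, 2529, 2353, 9438 and 6565 in IPC_TRI. All IPC_TRI arrays were below all CTL arrays, and arrays 4 and 5 were the nearest to them. The change was -1.63 ± 0.31 (adjusted p = 0.00083, limma). Gbp2, a guanylate-binding protein, read 901, 1566, 1136, 1138 and 803 in CTL and 347, 321, 201, 579 and 548 in IPC_TRI. No IPC_TRI array reached CTL, and the change was -1.48 ± 0.26 (adjusted p = 0.00044). Rsad2, which makes an antiviral nucleotide, read 8135, 9454, 8845, 7558 and 6317 in CTL and 1604, 2265, 1915, 5799 and 6379 in IPC_TRI. IPC_TRI arrays 1 to 3 were far below CTL and arrays 4 and 5 close to it, with array 5 above the lowest CTL array. The change of Rsad2 was -1.35 ± 0.30 (adjusted p = 0.0034), and its other probe set gave -1.72.

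The mean of the 20 genes showed the same split within IPC_TRI. Set to the CTL mean, it was 0.04, 0.22, 0.11, -0.13 and -0.23 in the CTL arrays and -1.06, -1.20, -1.21, -0.47 and -0.18 in the IPC_TRI arrays (log2). IPC_TRI arrays 1 to 3 were furthest below CTL, array 4 was below every CTL array, and array 5 lay inside the CTL range. Array 5 is also the array with the lowest weight, 0.164, and the weights of arrays 1 to 4 were 0.344, 0.300, 0.993 and 0.834. The part of array quality in this split was not tested. In whole tissue, fewer cells of a type and less RNA per cell cannot be told apart.

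**Figure D4:**
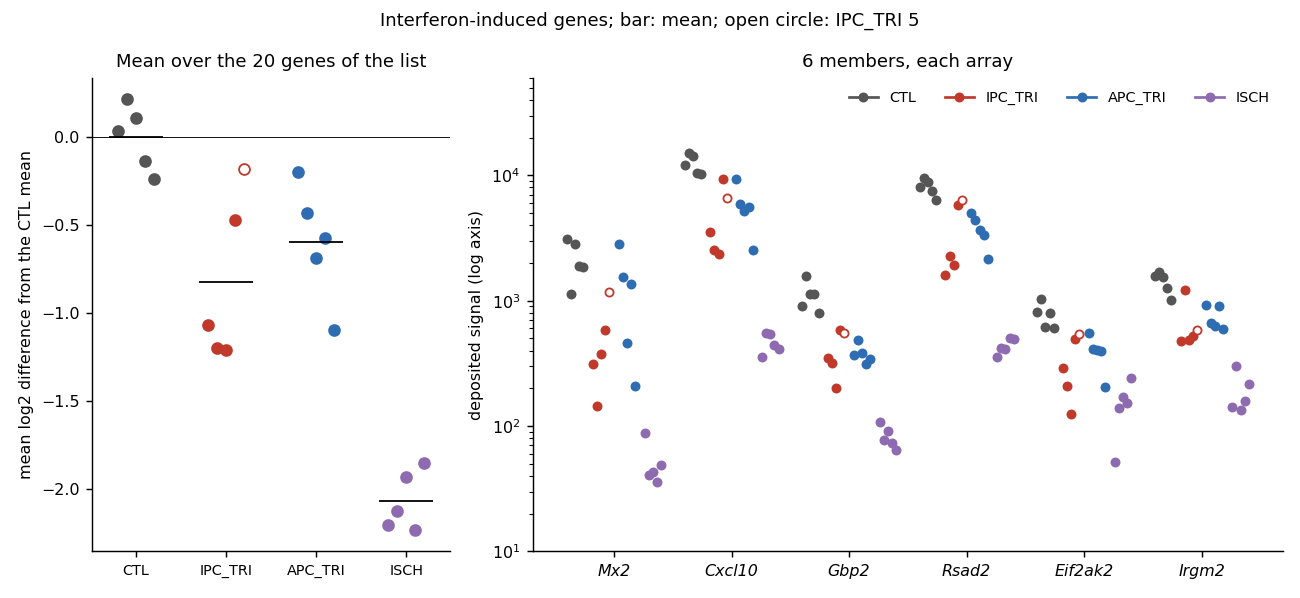
The left panel gives, per array, the mean log2 difference of the 20 interferon-induced genes from the CTL mean in CTL, IPC_TRI, APC_TRI and ISCH. The right panel gives the deposited signal of Mx2, Cxcl10, Gbp2, Rsad2, Eif2ak2 and Irgm2 per array on a log axis; IPC_TRI arrays 1 to 3 lie lowest in most of these genes, and the means of ISCH, -1.85 to -2.23, lie below all others.

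Cytokines, chemokines and adhesion molecules were mostly not called. Of 33 measured members, 1 rose, 5 fell and 27 did not pass, with a median of -0.34, which came to 0.01 without a filter on low values. Il15, a cytokine that sustains T and natural killer cells, read 1099, 983, 455, 1053 and 696 in CTL and 137, 373, 208, 496 and 526 in IPC_TRI. Its IPC_TRI arrays overlapped CTL through CTL array 3 alone, and the change was -1.38 ± 0.31 (adjusted p = 0.0037). Vcam1, the adhesion molecule that endothelium shows to leukocytes, did not overlap between groups and changed by -0.89 ± 0.26 (adjusted p = 0.017). Ccl4, a macrophage chemokine (-1.03 ± 0.32, adjusted p = 0.027), and Pecam1, an endothelial junction protein (-0.62 ± 0.20, adjusted p = 0.034), fell as well. Nfkbia, the inhibitor that NF-kappa-B switches on against itself, rose. It read 4075, 4666, 4464, 3511 and 4587 in CTL and 6619, 7063, 6089.7, 6579.9 and 5681 in IPC_TRI. Every IPC_TRI array was above every CTL array, and the change was 0.61 ± 0.14 (adjusted p = 0.0049). The call of Nfkbia was lost with median centring and with the beta-actin covariate. Of these, Nfkbia and Ccl4 were also called by the fit of the 2 groups alone. Leaving out 1 array ended the call of Vcam1 (IPC_TRI 2, adjusted p = 0.058), Ccl4 (CTL 2 or 4 or IPC_TRI 1, adjusted p = 0.062 to 0.076) and Pecam1 (CTL 3 or 4 or IPC_TRI 2 or 5, adjusted p = 0.074 to 0.12).

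Most genes of fatty acid oxidation did not pass the test, and more of them fell than rose. Of 39 measured members, 7 fell, 2 rose and 30 did not pass, and the median was -0.31, with 30 of 39 values below 0. Of all 3155 genes tested, 8.75% fell and 6.94% rose, and the median was -0.02, with 1618 values below 0. The members that fell serve uptake (Cd36), binding of acyl-CoA (Dbi), entry into mitochondria (Cpt1a) and the oxidation spiral (Acadm, Acadl, Acadvl, Hadhb). Acadm, the medium-chain acyl-CoA dehydrogenase, read 10677, 7479, 7515, 8893 and 8244 in CTL and 4371, 4117, 4728, 4141 and 1309 in IPC_TRI. Even the highest IPC_TRI array was below CTL, and array 5 was far below the other 4. The change was -1.36 ± 0.22 (adjusted p = 0.00014, limma), and without array 5 it was -1.03 (adjusted p = 6.9e-05). Dbi, the acyl-CoA-binding protein, read 853, 1171, 502, 1141 and 802 in CTL and 274, 298, 329.6, 341 and 251 in IPC_TRI. Its IPC_TRI arrays were close together and below CTL throughout, a change of -1.53 ± 0.21 (adjusted p = 2.4e-05). Cd36, the fatty acid transporter, read 3069.8, 2394, 2460.4, 2243 and 2391 in CTL and 1588, 492, 1328, 1307 and 894 in IPC_TRI. The groups did not overlap, the change was -1.18 ± 0.27 (adjusted p = 0.0036), and a further probe set gave -1.59. Cpt1a, the liver form of carnitine palmitoyltransferase 1, was also without overlap and changed by -1.21 ± 0.26 (adjusted p = 0.0029; 0.052 in the fit of the 2 groups alone). Of the 7 falls, 6 kept the call with any 1 array left out, and it was lost for Acadl (CTL 2 or 4 or IPC_TRI 4, adjusted p = 0.053 to 0.072, change -0.39 without IPC_TRI 4).

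The members of that list that rose were Echs1, a hydratase of the spiral (0.53 ± 0.18, adjusted p = 0.039), and Ucp2. Ucp2 read 9633, 10734, 6542, 7709.7 and 8610 in CTL and 15839, 16045, 17435, 17106 and 21601 in IPC_TRI. Each IPC_TRI array was above each CTL array, and the change was 0.90 ± 0.19 (adjusted p = 0.0017). Another, dimmer probe set of Ucp2 gave 0.11. The call of Ucp2 held with any 1 array left out, and that of Echs1 did not: Echs1 (CTL 4 or 5 or IPC_TRI 2, 3 or 5, adjusted p = 0.062 to 0.12).

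For the citric acid cycle with its entry enzyme, pyruvate dehydrogenase, 23 genes could be tested, of which 5 fell, 1 rose and 17 missed the threshold. The median was -0.33, against -0.02 over all genes tested, of which 8.75% fell and 6.94% rose. Pdhb, the beta subunit of the pyruvate dehydrogenase that feeds glucose carbon into the cycle, had the smallest adjusted p of any list member. It read 2498, 2825, 2057, 2447 and 1918 in CTL and 922, 994, 676, 1078 and 839 in IPC_TRI. The highest IPC_TRI array was well below the lowest CTL array. The change was -1.34 ± 0.14 (adjusted p = 7.4e-07), and its other probe set gave -1.43. Pdhx, which tethers another subunit of the same complex (-0.78 ± 0.24), Idh3g, a subunit of isocitrate dehydrogenase (-1.17 ± 0.26), Got2 (-0.55 ± 0.14) and Mdh2 (-0.43 ± 0.13), which carry the malate-aspartate shuttle, fell. Pdk2, a kinase that switches pyruvate dehydrogenase off, rose: it read 5509, 5803, 5218, 5466 and 6033 in CTL and 8123, 10206, 7005, 7189.9 and 8453 in IPC_TRI. No CTL array reached IPC_TRI, and the change was 0.51 ± 0.14 (adjusted p = 0.014). Median centring, array weights and the beta-actin covariate each ended the call of Pdk2. Pdhb, Got2 and Pdk2 were also called by the fit of the 2 groups alone. Another probe set gave 0.15 for Mdh2 and -0.21 for Pdk2. On leaving out 1 array, the call was lost for Pdhx (CTL 1, 2 or 4 or IPC_TRI 1, adjusted p = 0.055 to 0.097, change -0.47 without IPC_TRI 1) and Mdh2 (CTL 1 or 2, adjusted p = 0.052 to 0.061).

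Among 40 measured subunits of the respiratory chain and ATP synthase, 8 fell, 4 rose and 28 did not pass. Their median was -0.23, against -0.02 over all genes tested, of which 8.75% fell and 6.94% rose. Uqcrc2, a core protein of complex III, read 14888, 13012, 14634, 12269 and 11883 in CTL and 6010.1, 8049, 6968, 6139 and 5406 in IPC_TRI. All IPC_TRI arrays were below all CTL arrays, and the change was -1.17 ± 0.18 (adjusted p = 5.7e-05). Ndufs1, the largest subunit of complex I, read 2018, 2005, 1806, 2166 and 1633 in CTL and 994, 460.1, 1185, 1203 and 571 in IPC_TRI. Here too the groups did not overlap, with IPC_TRI arrays 2 and 5 the lowest, and the change was -1.17 ± 0.22 (adjusted p = 0.00080). The others that fell were Slc25a4, Atp5pd, Cox7b, Cox5b, Ckmt2 and Ndufa5, with changes of -0.66 to -0.37. Slc25a4, the adenine nucleotide translocator of the heart, and Ckmt2, the mitochondrial creatine kinase, were not called on the values as deposited (adjusted p = 0.42 and 0.48). Cox5b and Ndufa5 were not called on those values either. Among the falls, median centring ended the calls of Slc25a4, Ckmt2 and Cox5b. Those that rose were Cox8a, Ndufv3, Atp5f1e and Cox6a2. Cox8a, a small subunit of cytochrome oxidase, changed by 0.68 ± 0.14 (adjusted p = 0.0019), and by 1.06 on the values as deposited, while its other probe sets gave 0.20, -0.12 and 0.83. With 1 array left out, the call was lost for Atp5pd (IPC_TRI 5, adjusted p = 0.056) and Ndufa5 (CTL 1, 2, 4 or 5 or IPC_TRI 3, 4 or 5, adjusted p = 0.057 to 0.11) among the falls and for Ndufv3 (CTL 1, 2 or 4 or IPC_TRI 2 or 5, adjusted p = 0.053 to 0.088), Atp5f1e (CTL 4 or IPC_TRI 5, adjusted p = 0.052 to 0.065) and Cox6a2 (CTL 2 or 3 or IPC_TRI 1 or 3, adjusted p = 0.053 to 0.12) among the rises, and Cox5b moved to -0.39 without IPC_TRI array 5. Other probe sets gave -1.35 for Ckmt2, -1.26 for Cox5b and -0.20 for Cox6a2. The medians of the 3 oxidation lists stayed below 0 under each scaling tried.

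Most genes of glucose transport and glycolysis did not pass the test. Among 29 measured genes 5 fell and 1 rose, and the median was -0.09. Eno3, the muscle enolase, read 1125, 1225, 836, 763 and 993 in CTL and 309, 671, 509, 562 and 389.5 in IPC_TRI. IPC_TRI was below CTL without overlap, a change of -1.03 ± 0.21 (adjusted p = 0.0014). Slc16a1, which moves lactate across the membrane, changed by -1.01 ± 0.24 (adjusted p = 0.0057; 0.060 in the fit of the 2 groups alone). Pfkp, Pgk1 and Pfkm passed as well, with changes of -0.69 to -0.40, but with 1 array left out the call was lost for Pfkp (CTL 2, 3 or 4 or IPC_TRI 5, adjusted p = 0.053 to 0.13, change -0.43 without IPC_TRI 5), Pgk1 (CTL 2, adjusted p = 0.051) and Pfkm (CTL 4 or IPC_TRI 2, adjusted p = 0.062 to 0.067), and the fit of the 2 groups called none of them. Another probe set gave -2.15 for Pfkp and 0.09 for Pgk1. For Pgm1, which links glycogen to glycolysis, the probe sets disagreed: the brightest gave 0.74 ± 0.14 (adjusted p = 0.0010) and the others -0.55 and -0.71.

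**Figure D5:**
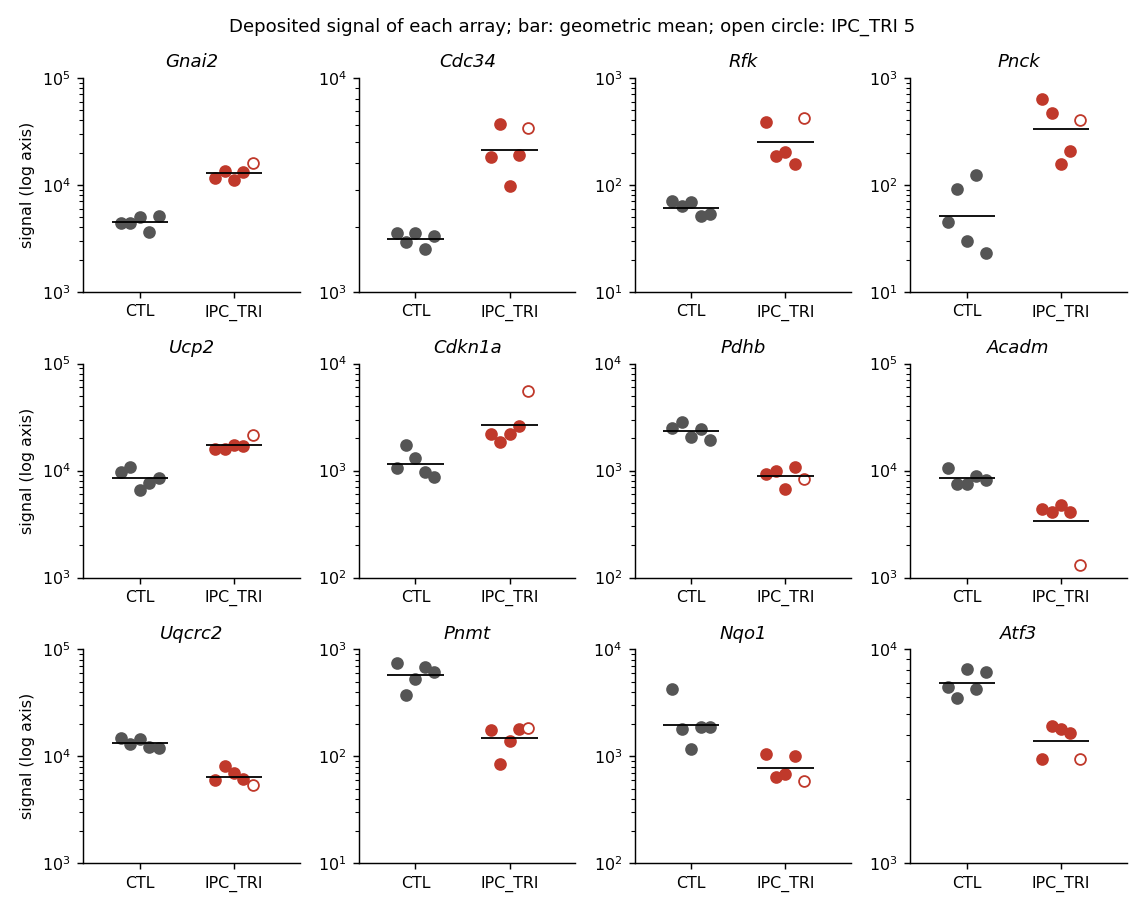
Each panel is a gene, with the deposited signal on a log axis for the 5 CTL and 5 IPC_TRI arrays; bars are geometric means and the open circle is IPC_TRI array 5. The groups do not overlap in any of the 12 panels, with Gnai2, Cdc34, Rfk, Pnck, Ucp2 and Cdkn1a higher in IPC_TRI and Pdhb, Acadm, Uqcrc2, Pnmt, Nqo1 and Atf3 lower.

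Antioxidant and Nrf2-controlled genes included 4 that fell and 1 that rose of 27 measured, with a median of -0.22 (all genes tested: 8.75% fell, 6.94% rose). Nqo1, a quinone reductase and a standard Nrf2 target, read 4229, 1785, 1166, 1862 and 1876 in CTL and 1049, 642, 686, 998 and 587 in IPC_TRI. IPC_TRI lay wholly below CTL, where array 1 was the highest. The change was -1.32 ± 0.27 (adjusted p = 0.0016). Gclc and Gclm, the subunits of the enzyme that limits glutathione synthesis, changed by -1.37 ± 0.40 (adjusted p = 0.019) and -1.33 ± 0.35 (adjusted p = 0.010). Prdx1, a peroxide scavenger, read 1348, 1555, 1406, 1256 and 1161 in CTL and 549, 1034, 791, 782 and 717 in IPC_TRI. It fell without overlap, with a change of -0.77 ± 0.16 (adjusted p = 0.0014). Hmox1, haem oxygenase 1, changed by 0.60 ± 0.19 (adjusted p = 0.027). Its groups overlapped, and its other probe set gave -0.27. Leaving out 1 array ended the call of Hmox1 (CTL 3 or 5 or IPC_TRI 3 or 5, adjusted p = 0.059 to 0.083) and Gclc (IPC_TRI 2, adjusted p = 0.066). The letters TGACNNNGC, the core of the antioxidant response element, were found on either strand in 12.2% of all promoters and in 14.9% of those of tested genes. Of the 22 members with a promoter entry, 7 held them: 2 of the 4 that fell and 5 of the 18 that did not fall.

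Of the endoplasmic reticulum stress list, 13 genes were measured; 3 fell and 1 rose. Ddit3, the stress factor known as CHOP, read 839, 776, 754, 1460.1 and 1088 in CTL and 469.9, 681, 540.2, 453 and 299 in IPC_TRI. IPC_TRI lay wholly below CTL, and the change was -0.99 ± 0.22 (adjusted p = 0.0038; 0.061 in the fit of the 2 groups alone). The chaperones Hspa5 (-0.56 ± 0.17) and Pdia3 (-0.53 ± 0.17) fell and Calr (0.67 ± 0.20) rose, but another probe set of Pdia3 gave 0.61, others of Calr gave -0.73 and -0.02, and that of Hspa5 gave -1.72. On leaving out 1 array, the call was lost for Hspa5 (CTL 2 or 4 or IPC_TRI 1 or 5, adjusted p = 0.054 to 0.091), Pdia3 (CTL 2 or 4 or IPC_TRI 1 or 5, adjusted p = 0.055 to 0.083) and Calr (CTL 2 or 4 or IPC_TRI 5, adjusted p = 0.054 to 0.072). None of these 4 was called by the fit of the 2 groups alone.

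Most heat shock proteins and chaperones did not pass: 1 of 21 measured genes rose and 3 fell (all genes tested: 6.94% rose, 8.75% fell). The median was -0.14. Hspa1a, the inducible HSP70 of late protection, read 2363, 4668, 10208, 4623 and 4992 in CTL and 7064, 5261, 7306, 4960.4 and 1407 in IPC_TRI. The groups overlapped over most of their range, and the change was -0.10 ± 0.32 (adjusted p = 0.86). Dnajb5, a cochaperone, rose: it read 754, 692, 783, 637 and 731 in CTL and 1425, 1221, 1021, 898 and 1369 in IPC_TRI. No CTL array reached IPC_TRI (change 0.77 ± 0.18, adjusted p = 0.0051). Hspa9, the HSP70 of mitochondria, changed by -1.50 ± 0.38 (adjusted p = 0.0084), with -1.96 and -1.04 from its other probe sets. Neither the fit of the 2 groups alone nor that with the beta-actin covariate called it. The small heat shock proteins of muscle Cryab (-0.55 ± 0.17) and Hspb6 (-0.43 ± 0.15) also passed, but on the values as deposited their adjusted p was 0.58 and 0.50. With 1 array left out, the call was lost for Cryab (CTL 1, 2, 3 or 4 or IPC_TRI 5, adjusted p = 0.052 to 0.095, change -0.27 without IPC_TRI 5) and Hspb6 (CTL 1, 2, 4 or 5 or IPC_TRI 2 or 5, adjusted p = 0.052 to 0.17, change -0.28 without IPC_TRI 5).

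Immediate early genes, the transcription factors and regulators that answer a stimulus within minutes, were measured for 29 members: 1 rose, 4 fell and 24 did not pass, with a median of 0.03. Fos read 5581, 4897, 6640, 4777 and 7652 in CTL and 7604, 8809.7, 12053, 6724 and 4229 in IPC_TRI. IPC_TRI arrays 1 to 3 were near or above the highest CTL array and array 5 was below the lowest, and the change was 0.32 ± 0.19 (adjusted p = 0.27). Jun (-0.35 ± 0.22, adjusted p = 0.27), Egr1 (-0.52 ± 0.23, adjusted p = 0.11) and Nr4a1 (0.23 ± 0.19, adjusted p = 0.41) did not pass either on their brightest probe sets. Of 3 other probe sets of Jun, 2 were called lower (-0.23, -1.02 and -0.90, the last 2 called), as were 2 of 3 of Egr1 (-0.71, -0.67 and -0.06, the first 2 called). Atf3, a factor induced by stress, fell: it read 6705, 5934, 8117, 6546 and 7799 in CTL and 3089, 4385, 4262, 4073 and 3082 in IPC_TRI. The groups did not overlap, and the change was -0.89 ± 0.18 (adjusted p = 0.0012). Klf4 (-1.02 ± 0.28, adjusted p = 0.014), Sgk1 (-0.68 ± 0.20) and Btg1 (-0.38 ± 0.13) fell as well, but none of these 3 was called by the fit of the 2 groups alone. Another probe set of Klf4 gave -2.56. Leaving out 1 array moved Klf4 (change -0.58 without IPC_TRI 5 at adjusted p = 0.031) and ended the call of Sgk1 (CTL 2 or IPC_TRI 3, adjusted p = 0.061 to 0.063) and Btg1 (CTL 1, 2, 3 or 4 or IPC_TRI 1, 2, 4 or 5, adjusted p = 0.051 to 0.15). Ier5, an early-response gene, rose with a change of 1.22 ± 0.31 (adjusted p = 0.0093), while its other probe set gave 0.17. Ptgs2, the inducible cyclooxygenase, read lower in 3 of 5 IPC_TRI arrays than in any CTL array and did not pass (-0.44 ± 0.35, adjusted p = 0.39; another probe set gave -1.26).

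Of the genes of preconditioning signalling, 45 were measured: 3 rose, 7 fell and 35 did not pass (all genes tested: 6.94% rose, 8.75% fell). The median was -0.13. Among the receptors, Adora1, the adenosine A1 receptor, read 190, 167, 189.7, 86.5 and 195 in CTL and 93.3, 74.1, 60.1, 199.9 and 131 in IPC_TRI. CTL array 4 was far below its group and IPC_TRI array 4 was above CTL, and the change was -0.82 ± 0.43 (adjusted p = 0.19). Gnai2, the inhibitory G protein subunit through which these receptors act, read 4428, 4368, 4947, 3586 and 5164 in CTL and 11479, 13463, 11189, 13195 and 15928 in IPC_TRI. Every IPC_TRI array was more than 2-fold above every CTL array. The change was 1.45 ± 0.20 (adjusted p = 2.7e-05), or 2.72 times CTL, but 2 other probe sets of Gnai2 gave 0.33 and 0.14.

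Among the kinases, Prkce, protein kinase C epsilon, read 682, 646, 671, 901 and 748 in CTL and 904, 1039, 885, 685 and 486 in IPC_TRI. IPC_TRI held both the highest and the lowest array, and the change was 0.12 ± 0.17 (adjusted p = 0.66), with -0.16, -0.07 and -0.27 from other probe sets. Akt2 (-0.85 ± 0.28), Jak2 (-0.90 ± 0.25) and Stat3 (-0.73 ± 0.26), kinases and a factor of the protective pathways, fell with adjusted p of 0.035, 0.014 and 0.047, and Gsk3a, which Akt inhibits, rose (0.39 ± 0.12, adjusted p = 0.031). None of these 4 was called by the fit of the 2 groups alone. Leaving out 1 array ended the call of Akt2 (CTL 2, 3, 4 or 5 or IPC_TRI 1 or 5, adjusted p = 0.051 to 0.14), Jak2 (IPC_TRI 5, adjusted p = 0.055), Stat3 (CTL 1, 2, 3, 4 or 5 or IPC_TRI 2 or 5, adjusted p = 0.067 to 0.18, change -0.48 without IPC_TRI 5) and Gsk3a (CTL 1, 2, 3 or 4 or IPC_TRI 1, 2 or 5, adjusted p = 0.052 to 0.078). Another probe set gave -0.19 for Akt2, -1.45 for Jak2 and 0.37 for Stat3.

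On the nitric oxide side, Gch1, which makes the tetrahydrobiopterin that nitric oxide synthases need, read 1365, 1439, 765, 882 and 865 in CTL and 373, 290.3, 335, 785 and 783 in IPC_TRI. IPC_TRI arrays 1 to 3 were below CTL and arrays 4 and 5 inside its range, and the change was -1.09 ± 0.28 (adjusted p = 0.0088). The fit of the 2 groups alone did not call Gch1. Nos2, the inducible synthase, changed by -1.27 ± 0.36 (adjusted p = 0.015) and was not called by that fit either. Its IPC_TRI arrays 2 and 5 read 33.5 and 79.3 and the others lay inside the CTL range, its other probe set gave 0.41, and with 1 array left out the call was lost for Nos2 (IPC_TRI 2 or 5, adjusted p = 0.055 to 0.058). Nos3, the endothelial synthase, changed by -0.15 ± 0.44 (adjusted p = 0.84), with 5 other probe sets between -1.19 and 0.14, 1 of them called lower.

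At the mitochondria, the carriers Slc25a4 (-0.66 ± 0.13) and Slc25a5 (-0.61 ± 0.15), which exchange ADP for ATP, and the outer-membrane channel Vdac1 (-0.82 ± 0.28, adjusted p = 0.046) fell, and Ucp2 rose. The call on Vdac1 also depended on single arrays: Vdac1 (CTL 1, 2, 3, 4 or 5 or IPC_TRI 2 or 5, adjusted p = 0.063 to 0.16). Its other probe set gave -1.62. The fit of the 2 groups alone called Slc25a4 and Ucp2 but not Slc25a5 or Vdac1. Kcnj8 and Kcnj11, the pore subunits of ATP-sensitive potassium channels, did not pass, with changes of -0.01 ± 0.30 (adjusted p = 0.99) and 0.06 ± 0.21 (adjusted p = 0.87), with -0.33 from another probe set of Kcnj11. For both, IPC_TRI array 5 was lower than the other IPC_TRI arrays.

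Pnmt, the enzyme that turns noradrenaline into adrenaline, fell with close replicates. It read 738, 371, 529, 683 and 615 in CTL and 177, 85.4, 139.8, 179 and 184 in IPC_TRI. The highest IPC_TRI array was below the lowest CTL array, and 4 of the 5 IPC_TRI arrays lay between 139.8 and 183.8. The change was -1.99 ± 0.28 (adjusted p = 3.5e-05), and the call held in the fit of the 2 groups alone (adjusted p = 0.0022). The natriuretic peptide genes Nppa (0.31 ± 0.36, adjusted p = 0.57) and Nppb (0.10 ± 0.16, adjusted p = 0.71), which rise in a strained ventricle, did not pass, and other probe sets of Nppa gave -0.49, 0.12 and -0.30. Of the 19 measured fetal and hypertrophy genes, Pnmt and Fhl2 (-0.44 ± 0.13) fell and Timp1 (0.57 ± 0.20) rose. On leaving out 1 array, the call was lost for Fhl2 (IPC_TRI 1, adjusted p = 0.053) and Timp1 (CTL 1, 2 or 4 or IPC_TRI 1, 4 or 5, adjusted p = 0.054 to 0.16).

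The direction of the contractile list depended on the scaling. Of 21 measured sarcomere genes, 3 fell and 1 rose; the median was -0.13 after quantile normalization, -0.09 with median centring and 0.12 on the values as deposited. Myh6, the main ventricular myosin heavy chain of the rat, read 33922, 33258, 43105, 26823 and 30719.9 in CTL and 32234, 41224, 35711, 36386 and 32169 in IPC_TRI. The groups overlapped, the change was -0.40 ± 0.11 (adjusted p = 0.014), and the values as deposited gave 0.09 (adjusted p = 0.69), so the direction of this probe set turned. Its other 2 probe sets were both called lower, at -0.78 and -1.06, and with 1 array left out the call was lost for Myh6 (CTL 1, adjusted p = 0.054). Tpm1, tropomyosin, read 32871, 39367, 56262, 29023 and 33974 in CTL and 93613, 112735, 74991, 81951 and 119862 in IPC_TRI. All IPC_TRI arrays were above all CTL arrays, but the change was 0.44 ± 0.10 (adjusted p = 0.0037) after normalization against 1.35 as deposited, and other probe sets gave 0.07, -0.56 and 0.41. Tcap, a cap of the giant protein titin, read 6763, 8031, 8865, 8231 and 6066 in CTL and 3936, 5779, 3080.3, 3602 and 3264 in IPC_TRI. IPC_TRI was below CTL without overlap, a change of -0.96 ± 0.22 (adjusted p = 0.0037).

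Of 30 measured genes of calcium handling and ion channels, 5 rose and 5 fell (all genes tested: 6.94% rose, 8.75% fell). The median of 0.08 was -0.13 with median centring. The release channel Ryr2 (-1.002 ± 0.34, adjusted p = 0.039), the pump inhibitor phospholamban, Pln (-0.58 ± 0.15, adjusted p = 0.010), the kinases Camk2a (-1.04 ± 0.34) and Camk2d (-0.61 ± 0.16) and the potassium channel Kcnd2 (-0.80 ± 0.27) fell. S100a1 (0.49 ± 0.16), Fxyd1 (0.49 ± 0.17), Cacna1g (0.68 ± 0.20), Kcnk3 (0.81 ± 0.23) and Camk2b (0.82 ± 0.24) rose. Only Pln of these 10 was also called by the fit of the 2 groups alone. For Ryr2 the low arrays were IPC_TRI 2 and 5, at 321.2 and 298.3 against 1195 to 1535 in CTL. Pln and Camk2d kept the call with any 1 array left out. It was lost for Ryr2 (CTL 1, 2, 3 or 4 or IPC_TRI 2 or 5, adjusted p = 0.063 to 0.16, change -0.64 without IPC_TRI 5), Camk2a (CTL 1, 2, 4 or 5 or IPC_TRI 1 or 2, adjusted p = 0.050 to 0.11) and Kcnd2 (CTL 1, 2, 3 or 4 or IPC_TRI 5, adjusted p = 0.058 to 0.15, change -0.47 without IPC_TRI 5) among the falls. Among the rises it was lost for S100a1 (CTL 1, 3 or 5 or IPC_TRI 1, adjusted p = 0.066 to 0.12, change 0.32 without IPC_TRI 1), Fxyd1 (CTL 2, 3, 4 or 5 or IPC_TRI 2, 3, 4 or 5, adjusted p = 0.050 to 0.18), Cacna1g (CTL 2 or IPC_TRI 5, adjusted p = 0.055 to 0.066), Kcnk3 (CTL 4 or IPC_TRI 5, adjusted p = 0.065 to 0.073) and Camk2b (CTL 2 or IPC_TRI 5, adjusted p = 0.054 to 0.075, change 0.54 without IPC_TRI 5). Probe sets disagreed in sign for Kcnk3 (-0.29 from the other), S100a1 (0.77, 0.18 and -0.13), Fxyd1 (-0.09) and Camk2d (0.25, -1.61, -0.93 and 0.46).

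Growth arrest and cell cycle genes counted 3 that rose and 2 that fell of 21 measured. Cdkn1a, the p21 inhibitor of the cell cycle, read 1051, 1718, 1314, 967 and 870.2 in CTL and 2199, 1867, 2220, 2599.5 and 5497 in IPC_TRI. IPC_TRI lay wholly above CTL, and its array 5 was far above the rest. The change was 1.31 ± 0.40 (adjusted p = 0.024; 0.029 in the fit of the 2 groups alone), without array 5 it was 1.01, and another probe set gave 0.63. Ccnd3, cyclin D3, changed by 0.88 ± 0.18 (adjusted p = 0.0015), with 0.08, -0.56 and 0.39 from its other probe sets, and Cdkn1c, another cell cycle inhibitor, by 0.93 ± 0.27 (adjusted p = 0.018). Btg3 (-1.16 ± 0.33; -0.42 from another probe set) and Btg1 (-0.38 ± 0.13), which restrain proliferation, fell, though not in the fit of the 2 groups alone. With 1 array left out, Ccnd3 kept its call, and the call was lost for Cdkn1a (CTL 4 or 5 or IPC_TRI 5, adjusted p = 0.053 to 0.090), Cdkn1c (CTL 2 or IPC_TRI 2 or 5, adjusted p = 0.050 to 0.056), Btg3 (IPC_TRI 5, adjusted p = 0.057, change -0.69 without IPC_TRI 5) and Btg1 (CTL 1, 2, 3 or 4 or IPC_TRI 1, 2, 4 or 5, adjusted p = 0.051 to 0.15).

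The remaining process lists held few calls. In apoptosis, 1 of 11 measured genes rose: Bnip3l, a receptor for the removal of mitochondria, read 1488, 1244, 1151, 1413 and 1473 in CTL and 2006, 2321, 1765, 1867 and 1708 in IPC_TRI. Its groups did not overlap (change 0.62 ± 0.15, adjusted p = 0.0073), but its call was lost with median centring. In coagulation, 1 of 15 fell: Plat, tissue plasminogen activator, read 697, 718, 763, 769.9 and 818 in CTL and 286, 391, 419, 429.6 and 411 in IPC_TRI. IPC_TRI was below CTL on every array (change -0.97 ± 0.18, adjusted p = 0.00083). Of 27 measured genes of hypoxia and angiogenesis, Adm, a vessel-widening peptide (-1.32 ± 0.36), and Pdgfb (-1.15 ± 0.35) fell and Egln3, an oxygen sensor (0.71 ± 0.23), rose, with none called by the fit of the 2 groups alone. Of 9 cholesterol synthesis genes Fdft1, squalene synthase, fell (-1.57 ± 0.47, adjusted p = 0.022), with -0.35, -1.64 and -0.05 from other probe sets. Other probe sets gave -0.38 for Egln3 and 1.502 and -0.02 for Psmb4, a proteasome subunit. Of 14 glucocorticoid and circadian genes 1 rose (Cdkn1a) and 1 fell (Sgk1), of 27 proteasome and ubiquitin genes 1 rose (Psmb4) and 1 fell (Ube2d2), and of 37 cytosolic ribosomal proteins 2 rose (Rps24 and Rpsa) and none fell. Of these calls, those lost with 1 array left out were Pdgfb (CTL 4 or 5 or IPC_TRI 1 or 5, adjusted p = 0.056 to 0.096), Egln3 (CTL 1, 2 or 4 or IPC_TRI 3, 4 or 5, adjusted p = 0.059 to 0.091), Fdft1 (CTL 1 or IPC_TRI 5, adjusted p = 0.053 to 0.059), Psmb4 (CTL 2 or 4 or IPC_TRI 5, adjusted p = 0.055 to 0.080), Rpsa (CTL 1 or 4 or IPC_TRI 5, adjusted p = 0.054 to 0.080), Cdkn1a (CTL 4 or 5 or IPC_TRI 5, adjusted p = 0.053 to 0.090) and Sgk1 (CTL 2 or IPC_TRI 3, adjusted p = 0.061 to 0.063).

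Markers of cell types were read for a change in the make-up of the samples. Of 15 measured markers of ventricular cardiomyocytes, 4 fell and none rose, but their median of -0.13 was 0.14 with median centring and 0.35 as deposited, and their summed signal was 281813 to 445238 in CTL and 377754 to 558497 in IPC_TRI. Of 20 fibroblast and matrix genes, Dcn, Timp1 and Lox rose and none fell, and Dcn alone was called by the fit of the 2 groups. Lox, which crosslinks collagen, changed by 0.68 ± 0.23, with -0.66 and -1.21 from other probe sets, and its call and that of Timp1 were lost with 1 array left out: Lox (CTL 1, 2 or 5 or IPC_TRI 1, 4 or 5, adjusted p = 0.053 to 0.15) and Timp1 (CTL 1, 2 or 4 or IPC_TRI 1, 4 or 5, adjusted p = 0.054 to 0.16). Dcn, the matrix proteoglycan decorin, read 12661, 14430.3, 19458, 16008 and 13747 in CTL and 32695, 64887, 29775, 32939 and 51151 in IPC_TRI. Its groups did not overlap (change 0.93 ± 0.17, adjusted p = 0.00051), but its other probe sets gave 0.15, -0.69 and 0.11. The summed signal of the 20 genes was 54381 to 65417 in CTL and 69427 to 106323 in IPC_TRI. Dcn held 40.1% of it, and the sum of the other 19 was 41720 to 45959 in CTL and 28528 to 53198 in IPC_TRI, so without Dcn the groups overlapped.

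Of 9 skeletal muscle markers, 3 rose and none fell: Casq1, the calcium store protein of fast muscle (1.10 ± 0.29, adjusted p = 0.0099), the calcium pump Atp2a1 (0.97 ± 0.31, adjusted p = 0.032) and the light chain Myl1 (0.58 ± 0.19, adjusted p = 0.036). None of the 9 was called by the fit of the 2 groups alone, and with 1 array left out the call was lost for Atp2a1 (CTL 2 or 4 or IPC_TRI 5, adjusted p = 0.061 to 0.098) and Myl1 (CTL 1, 2, 4 or 5 or IPC_TRI 1 or 2, adjusted p = 0.053 to 0.10). The summed signal of the 9 was 19984 to 30296 in CTL and 27030 to 46332 in IPC_TRI, but 89.7% of it was that of Ckm, the muscle creatine kinase, which the ventricle also makes. Without Ckm the sum was 2056 to 3797 in CTL and 2773 to 5463 in IPC_TRI. Of 7 atrial markers none was called. Their sums were 12898 to 16838 in CTL and 17003 to 22061 in IPC_TRI, of which Pam, an enzyme that amidates peptides, held 80.8%, and without it 2357 to 3930 and 2204 to 5115. Among blood and immune markers, C1qb, a complement chain that macrophages make, rose (1.38 ± 0.44, adjusted p = 0.031), as did the T-cell genes Cd8b (0.92 ± 0.28) and Cd247 (0.69 ± 0.23); summed over 6 myeloid markers the signal was 5149 to 6653 in CTL and 4621 to 5805 in IPC_TRI (without Cd74, which held 68.6%, 1319 to 1762 and 1774 to 2281), and over 7 lymphocyte markers 978.9 to 1170 and 1126 to 2664. With 1 array left out the call was lost for C1qb (CTL 1 or 4 or IPC_TRI 2, adjusted p = 0.063 to 0.11), Cd8b (CTL 3 or IPC_TRI 2 or 5, adjusted p = 0.080 to 0.10, change 0.55 without CTL 3) and Cd247 (CTL 1, 3 or 5 or IPC_TRI 3 or 4, adjusted p = 0.051 to 0.084), and another probe set of C1qb gave 0.52. Cd8b and Cd247 were not called by the fit of the 2 groups alone (limma adjusted p = 0.18 and 0.13). The other 5 lymphocyte markers did not pass: Cd3g (0.23) and Gzmb (0.09) lay above 0, Cd4 (-0.25), Cd5 (-0.25) and Lck (-0.10) below. Cd3g read 919.1 on IPC_TRI array 5, against 14.5 to 221.5 on the other IPC_TRI arrays. Of 10 endothelial markers, Pecam1 fell, with sums of 4589 to 5646 and 4616 to 5675. No marker of smooth muscle (9 measured), mast cells (4), red blood cells (2), adipocytes (4) or nerve (8) was called. No marker of any list was at 0 on these arrays. The part of cell make-up in the changes above was not tested.

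Over all genes tested, the 15 largest rises were those of Kctd13, Pnck, Serpina3l, Syt5, Rfk, Cdo1, Ces1dl1, Gnai2, Cdc34, Cyp2j3, C1qb, P2rx3, Mfng, B4galnt1 and Gda, from 3.05 to 1.31 on the log2 scale. Cdc34, which hands ubiquitin to cullin ligases, read 1873, 1711, 1879.7, 1589.6 and 1816 in CTL and 4269, 6071, 3114, 4371 and 5847 in IPC_TRI. Each IPC_TRI array was above each CTL array, and CTL was narrow. The change was 1.45 ± 0.17 (adjusted p = 1.7e-06), with 1.01 and 0.19 from other probe sets. Rfk, riboflavin kinase, which makes the flavin cofactor FMN, read 71.3, 63.1, 69.7, 51.1 and 53 in CTL and 389.6, 188, 204, 156 and 422 in IPC_TRI. IPC_TRI was above CTL without overlap, a change of 1.66 ± 0.27 (adjusted p = 0.00016). Gda, guanine deaminase, changed by 1.31 ± 0.21 (adjusted p = 0.00015), and its other probe sets gave 0.98 and 1.02.

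Kctd13, an adaptor of a cullin ligase, had the largest rise and rested on few arrays. It read 836, 95.9, 709, 126 and 591 in CTL and 1188, 88172, 701, 1298 and 3449 in IPC_TRI. IPC_TRI array 2 was far above all others, the groups overlapped, and the fit of the 2 groups alone did not call Kctd13. The change was 3.05 ± 0.92 (adjusted p = 0.023), other probe sets gave 0.52 and 0.19, and with 1 array left out the call was lost: Kctd13 (CTL 2 or 4 or IPC_TRI 2, adjusted p = 0.065 to 0.087, change 2.03 without IPC_TRI 2). Pnck, a calmodulin-dependent kinase, read 44.5, 92.2, 30.1, 123 and 23.1 in CTL and 632, 474, 157, 207 and 402 in IPC_TRI. The groups did not overlap, and the change was 2.25 ± 0.66 (adjusted p = 0.019; 0.17 with array weights).

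Among the other rises, Cyp2j3, a cytochrome P450 that makes epoxides of arachidonic acid (1.44 ± 0.35), Mfng, which adds sugars to Notch (1.36 ± 0.33), and Syt5, a calcium sensor of vesicles (1.68 ± 0.40), did not overlap between groups. Ces1dl1, named as a carboxylesterase-like gene (1.51 ± 0.29), Serpina3l, a serine protease inhibitor (1.85 ± 0.47), and Cdo1, cysteine dioxygenase (1.60 ± 0.38), each overlapped CTL on 1 IPC_TRI array, and another probe set of Cdo1 gave -0.20. P2rx3, an ATP-gated channel (1.37 ± 0.44), and B4galnt1, a ganglioside synthase (1.31 ± 0.43), lost the call with 1 array left out: P2rx3 (CTL 4 or 5 or IPC_TRI 2 or 5, adjusted p = 0.056 to 0.090) and B4galnt1 (CTL 1, 2 or 4 or IPC_TRI 1 or 5, adjusted p = 0.051 to 0.14). B4galnt1 was also not called by the fit of the 2 groups alone.

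The largest falls were those of Mx2, Rasl11b, Sptan1, Pnmt, Tnks2, Acadsb, Lyn, Crk, Slc25a14, B4galt1, Gdf15, Lrba, Ankfy1, Med1 and Rab3a, from -2.25 to -1.69. Rasl11b, a small GTPase of the Ras family, read 158, 208, 119, 200 and 73.4 in CTL and 47.4, 24.7, 15.4, 15.9 and 37.5 in IPC_TRI. The groups did not overlap, with 3 IPC_TRI arrays under 30 (change -2.20 ± 0.30, adjusted p = 2.3e-05), and another probe set gave -0.67. Sptan1, the alpha chain of non-erythroid spectrin, read 747, 616, 670, 855 and 860.4 in CTL and 238, 182, 254, 401 and 56.3 in IPC_TRI. All IPC_TRI arrays were below CTL and array 5 was the lowest (change -1.998 ± 0.31, adjusted p = 8.5e-05). Lrba, a protein of vesicle traffic, read 285, 266, 371, 265 and 294 in CTL and 77.3, 119, 94.6, 72.4 and 101 in IPC_TRI. IPC_TRI was close together and below CTL throughout (change -1.74 ± 0.29, adjusted p = 0.00017).

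The other large falls were of several kinds. Acadsb, an acyl-CoA dehydrogenase of branched chains (-1.92 ± 0.53), and Slc25a14, a carrier of the uncoupling protein family (-1.80 ± 0.35), belong to mitochondria. Lyn, a Src-family kinase (-1.84 ± 0.41), and Crk, an adaptor (-1.82 ± 0.39), transmit signals from the membrane, though another probe set of Lyn gave -0.10. Tnks2, a tankyrase (-1.95 ± 0.32), Med1, a subunit of Mediator (-1.72 ± 0.41), Gdf15, a stress-induced cytokine (-1.78 ± 0.37), B4galt1, a galactosyltransferase (-1.78 ± 0.50), Ankfy1, an endosomal protein (-1.73 ± 0.35; -0.46 from another probe set), and Rab3a, a GTPase of vesicle release (-1.69 ± 0.44), completed the 15. In Acadsb, Crk, Gdf15 and Sptan1 the lowest array was IPC_TRI 2 or 5, and with 1 array left out the call was lost for Acadsb (IPC_TRI 2 or 5, adjusted p = 0.051 to 0.061) and B4galt1 (IPC_TRI 5, adjusted p = 0.060), while that of Rab3a held at a smaller change: Rab3a (change -0.96 without IPC_TRI 5 at adjusted p = 0.012). The fit of the 2 groups alone called none of these 3, nor Crk, Gdf15 or Ankfy1. Among the 30 largest changes, the calls of Mx2, Sptan1, Pnmt, Gnai2, Cdc34, Ces1dl1 and Gda held under every alternative run for this comparison. Those of Rasl11b, Tnks2, Lyn, Slc25a14, Lrba, Rfk, Mfng, Serpina3l and Cdo1 held under each alternative that tested them. They were among the 60% of probe sets that the stricter filter left out.

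The next question was whether this trigger differed from the anaesthetic one. IPC_TRI and APC_TRI differed in few genes: 23 probe sets were called (0.439%), and 11 genes (0.349%), 4 higher in IPC_TRI (0.127%) and 7 lower (0.222%). The fit of the 2 groups alone called none (limma, 0.00%), with 398 probe sets at an unadjusted p under 0.05, against 771 in the fit of all 6 groups. Leaving out 1 array at a time gave 8 to 91 probe sets, the lowest without APC_TRI array 4 and the highest without IPC_TRI array 3. The deposited signals of these groups did not overlap for 43 genes (1.36%).

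Pnmt, low in both, was lower after the ischaemic trigger. Its APC_TRI arrays read 326, 347, 432, 336 and 337, against 177, 85.4, 139.8, 179 and 184 in IPC_TRI. The groups did not overlap, and the difference was -1.34 ± 0.28 (adjusted p = 0.019), but the call was lost with 1 array left out: Pnmt (APC_TRI 3 or 4 or IPC_TRI 2, adjusted p = 0.052 to 0.064). Scd2, a fatty acid desaturase, was also lower in IPC_TRI. It read 314, 38.3, 60.7, 70.1 and 142 there and 344, 304, 339, 519 and 329 in APC_TRI, a difference of -1.89 ± 0.28 (adjusted p = 0.00051), the smallest p of the comparison. IPC_TRI array 1 lay among the APC_TRI arrays and the other 4 were below them, and other probe sets of Scd2 gave -0.29 and 0.12. Lct, lactase (-1.85 ± 0.41), Zc3hc1 (-1.31 ± 0.26), Tnfsf13, a tumour necrosis factor family ligand (-1.18 ± 0.27), and Gata6, a cardiac transcription factor (-0.69 ± 0.16), were lower too. Leaving out 1 array ended the call of Lct (APC_TRI 3 or 4, adjusted p = 0.066 to 0.10), Tnfsf13 (APC_TRI 2, 3 or 4 or IPC_TRI 1 or 2, adjusted p = 0.066 to 0.13) and Gata6 (APC_TRI 1, 2, 3, 4 or 5 or IPC_TRI 1 or 2, adjusted p = 0.051 to 0.11), and the other probe set of Lct gave -0.0012.

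Uck2, a uridine-cytidine kinase, was higher in IPC_TRI. It read 593, 461, 633, 601 and 495 there and 201, 149, 179.6, 225 and 417 in APC_TRI, without overlap (difference 1.26 ± 0.25, adjusted p = 0.015). Areg, a growth factor of the EGF family (1.43 ± 0.32, adjusted p = 0.032), Nme6, a nucleoside diphosphate kinase (1.28 ± 0.23), and Fdx1, the ferredoxin that feeds electrons to mitochondrial P450 enzymes (0.83 ± 0.16), were higher as well, with 0.51 from another probe set of Nme6 and -0.02 from that of Fdx1. The call was lost with 1 array left out for Areg (APC_TRI 1, 2 or 4 or IPC_TRI 1, adjusted p = 0.056 to 0.12). None of the 20 interferon-induced genes and no member of the 3 oxidation lists was called between the triggers. Their medians were -0.15 for the interferon-induced genes, -0.12 for fatty acid oxidation, -0.08 for the citric acid cycle and -0.03 for the respiratory chain, against -0.02 over all genes. A p that misses the threshold does not show that the triggers act alike. Both trigger groups also had a low mean beta-actin 3′ minus 5′ difference, -0.46 in IPC_TRI and -0.36 in APC_TRI, against 0.08 in CTL. The part of this shared shift was not tested. Since both triggers were set against the same CTL arrays, their own changes from CTL are not compared here beyond these direct differences.

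Against hearts exposed to ischaemia, IPC_TRI differed in 944 probe sets (18.0%) and 535 genes (17.0%), 265 higher in IPC_TRI (8.40%) and 270 lower (8.56%). With the beta-actin difference as a covariate 253 probe sets were called, and in the fit of the 2 groups alone 321 (6.12%). Interferon-induced genes were higher in IPC_TRI than in ISCH: 15 of 20 were called higher, none lower, with a median of 1.08 against -0.00093 over all genes. Cxcl10 had a median signal of 441 in ISCH, 3503 in IPC_TRI and 12083 in CTL, a difference of 3.24 ± 0.31 between IPC_TRI and ISCH (adjusted p = 7.9e-09). Rsad2 (2.86 ± 0.30) and Mx2 (2.73 ± 0.51) were also among the largest, although Mx2 was not called with the beta-actin covariate (adjusted p = 0.38). The median signals of all 3 in IPC_TRI lay between those in ISCH and in CTL. Cx3cl1, a chemokine of endothelium (2.98 ± 0.32), Cebpd, an inflammatory transcription factor (2.29 ± 0.36), and Pnck (2.45 ± 0.66) made up the rest of the 6 largest, with 1.67 and -0.17 from other probe sets of Cebpd and 1.73 and 1.93 from those of Cx3cl1.

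Immediate early and chaperone genes went the other way. Of 29 immediate early genes, 10 were lower in IPC_TRI than in ISCH and 2 higher. Jun, a subunit of the AP-1 factor, read 5753, 10395, 10554, 8980.4 and 6017 in ISCH. In IPC_TRI it read 841, 912, 1450, 1241 and 657, all below every ISCH array, and the difference was -3.00 ± 0.22 (adjusted p = 3.8e-11). Klf4 (-2.99 ± 0.28), the chaperone Hsph1 (-2.57 ± 0.18), the fatty acid carrier Fabp4 (-2.81 ± 0.34), Rasl11b (-2.71 ± 0.30) and Cyp4b1, a cytochrome P450 (-2.25 ± 0.44), followed. Other probe sets gave -4.45 for Klf4, -1.84 for Rasl11b and -2.36, -3.33 and -2.81 for Jun. Of the chaperone list, 7 of 21 were lower and 1 higher.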

How the data were processed

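Total RNA of rat left ventricle was hybridised to 30 Affymetrix arrays. The deposited table holds 1 intensity per probe set and array, made by the authors with software that is not given in the sources used here. After a 2% trim at each end the array means were 500.8 to 501.0, so each array had been scaled to a common mean, and array medians ran from 114.6 to 189.2. Nothing shows log transformation, and 5 values were 0.

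From these values, 16 was added, log2 taken, and quantile normalization run over the 30 arrays. The 59 control probe sets were left out, then the 40% of the rest with the lowest mean, leaving 5244. The tests were limma lmFit and eBayes with a trend (limma 3.58.1, R 4.3.3), with a mean for each of 6 groups and Benjamini-Hochberg adjustment. Tables, promoter searches and plots used Python 3.11.15, numpy 2.4.6, pandas 2.3.3 and matplotlib 3.10.9. The fit was run on simulated data with the same spread in every group. That run cannot show how the fit behaves with the wider spread of IPC_TRI. Of the probe sets, 7006 had 1 gene symbol in the platform annotation, 308 several and 1426 none; those without 1 symbol (170 of the called) were counted and not named. The 1581 symbols under the filter were not tested. No 2 arrays were identical, and the highest correlation between 2 arrays was 0.9762.

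Named genes were the 15 largest called changes in each direction, up to 4 called members of each list with the largest changes, a short set of preconditioning genes whether called or not and, for APC_TRI and ISCH, the 6 largest called differences per direction. Other called list members were named after their values were seen. The members and lists were chosen with earlier results of these data known. Alternatives were other pseudocounts, filters and scalings, array weights, covariates, a replicate block, fits of 2 groups and leaving out arrays.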

Additional observations from a re-analysis of the deposited data

Results flagged for a closer look

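In 119 named genes, the arrays of CTL and of IPC_TRI were each checked for 1 array far from the other 4. The measure is the gap from the highest or lowest array to its neighbour, divided by the group's range, and values above 0.71 were taken up. It was taken on the normalized log2 values, where the order of arrays can differ from that of the deposited signals. Of 238 groups checked, 18 passed, 13 in IPC_TRI and 5 in CTL, and chance alone passes about 1 in 20.

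IPC_TRI array 5 was the one apart in 10. It was the lowest array for the Notch glycosyltransferase Mfng (0.843), Klf4 (0.761), the small heat shock proteins Cryab (0.803) and Hspb6 (0.807), Acadm (0.874), the phosphofructokinase Pfkp (0.743), Egr1 (0.799), Hspa1a (0.768) and the channel subunit Kcnj8 (0.729), and the highest for the cell cycle inhibitor Cdkn1a (0.762). Other IPC_TRI arrays stood apart for Ckmt2 (array 3 lowest, 0.891), Nos3 (array 1 lowest, 0.87) and Adora1 (array 4 highest, 0.763). In the deposited signals of Ckmt2, IPC_TRI array 5 was the lowest, at 13968, and array 3 read 14850.

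In CTL, array 3 was the highest for Lrba (0.783) and Idh3g (0.787) and the lowest for Cd8b (0.817), and array 4 was the highest for Klf4 (0.755) and the lowest for Adora1 (0.909).

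Pnmt was taken up because its changes from CTL differed between the triggers. IPC_TRI minus APC_TRI was -1.34 (log2, n = 5 per group, limma adjusted p = 0.019), and the call was lost without APC_TRI array 3 or 4 or IPC_TRI array 2 (adjusted p = 0.052 to 0.064).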

How the results depend on the processing

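For IPC_TRI minus CTL, 869 probe sets were called. The count was 238 in the fit of the 2 groups alone, 394 with array weights and 431 with the beta-actin difference as a covariate, and leaving out 1 array at a time gave 567 (without CTL array 4) to 1076 (without IPC_TRI array 3). For IPC_TRI minus APC_TRI (23 called), it was 15 with 60% of probe sets left out, 41 with median centring, 0 in the fit of the 2 groups, 13 with array weights, 41 with the beta-actin covariate, 91 without IPC_TRI array 5 and ISCH array 1 together, and 8 to 91 leaving out 1 array. For IPC_TRI minus ISCH (944), it was 321 in the fit of the 2 groups, 253 with the beta-actin covariate and 771 to 1134 leaving out 1 array. The cause of these differences was not tested beyond the fewer arrays in some fits. With median centring, 18.3% of the calls against CTL were higher in IPC_TRI, against 39.0%, and the median over all probe sets moved from -0.05 to -0.19.

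Over 119 of the named genes, 355 of the alternatives against CTL lost the call. Another 2205 stayed on the same side of the threshold with the same sign, and 29 uncalled values in 8 genes changed sign. Only 1 called value reversed: Myh6, at 0.0942 on the values as deposited. Called list members named after their values were seen are not in these counts.

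Equal replicate numbers did not pair the arrays. The deviations of same-numbered arrays correlated at -0.06 to 0.10 (IPC_TRI and CTL), -0.09 to 0.10 (APC_TRI) and -0.05 to 0.17 (ISCH). With the number as a replicate block 895, 28 and 955 probe sets were called in the 3 comparisons.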

Other observations

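Pnmt was low in both groups that had ischaemic preconditioning. Its median signal was 176.8 in IPC_TRI and 208.8 in IPC, against 337.4 in APC_TRI and 575.2, 581.4 and 615 in ISCH, APC and CTL. Gnai2 was high in both trigger groups, with medians of 13195 in IPC_TRI and 11110.3 in APC_TRI, against 3680 to 4428 in the other 4 groups. Pdhb was low in the same groups, at 921.9 and 1143, against 1834 to 2447. These values of the full protocols were not tested here. The 2 trigger groups also shared a shift in control probe sets. The mean beta-actin 3′ minus 5′ difference was -0.46 in IPC_TRI and -0.36 in APC_TRI, against 0.04 to 0.34 in the other groups. That of Gapdh was 0.13 and 0.19, against -0.06 to 0.006. The part of this shift in Gnai2 and Pdhb was not tested.

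The list means of single arrays show IPC_TRI array 5 apart in lists without many calls. Set to the CTL mean, the chaperone list was at -0.65 in that array and between -0.14 and 0.23 in the other 4 IPC_TRI arrays (log2). The immediate early list was at -0.41 in array 5 and between -0.15 and 0.17 in the others. In both lists the CTL arrays lay between -0.19 and 0.09.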
